A study of Mus musculus with 10 samples.

Results

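Messenger RNAs of 36 genes that act in the G2 phase of the cell cycle and in mitosis were compared between liver samples of mice given MI-883 and of control mice. The genes were taken by name, and all 36 were among the 16647 genes of the count table and among the 13219 genes that were tested. The samples were 10 livers of male humanized PXR-CAR-CYP3A4/3A7 mice, which carry the human genes for the xenobiotic receptors PXR and CAR and for the drug-metabolizing enzymes CYP3A4 and CYP3A7 in an otherwise mouse liver. At the start of the diet the animals were 10 to 15 weeks old. All of them received a high-fat diet (HFD), for 8 weeks before treatment and also during the treatment. The 5 MI-883-treated mice then received MI-883, a compound that the study describes as an agonist of human CAR and an antagonist of human PXR, at 5 mg/kg by oral gavage 3 times per week for 4 weeks. The 5 control mice received the vehicle alone (a mixture of DMSO, PEG300 and corn oil) on the same schedule. No group on another diet and no group with mouse receptors was part of this comparison. As background, Car activation in rodents has been linked to liver growth by cell enlargement and by hepatocyte division, an effect that the study describes as weaker in mice with human CAR.

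Hepatocytes of an adult liver rarely divide, and whole-liver RNA therefore holds little messenger RNA of mitosis genes. Cells that do divide switch these genes on as a block late in the cycle. The kinase Cdk1 together with B-type cyclins starts mitosis, Plk1 and the Aurora kinases build the spindle, kinetochore proteins attach chromosomes to it, and the spindle checkpoint holds back Cdc20 until every chromosome is attached. The ubiquitin ligase APC/C with Cdc20 then marks cyclin B for destruction, and Ect2, Racgap1 and Anln cut the cell apart. Transcription of the block is controlled by FoxM1, B-Myb and the MuvB complex, which act at a promoter element called the CHR, often next to CCAAT boxes that bind NF-Y.

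These 2 promoter elements were looked up because the rule that chose the genes did not use sequence. RefSeq promoter sequences of GRCm38.p6, each 300 bases long from 250 bases before to 50 bases after an annotated start, were found for 30 of the 36 genes. The letters CCAAT on either strand were present in 24 of 30 (80.0%), against 37.4% of all 32851 promoters in the table. A CHR, searched on either strand as TTTGAA, as the variant TTCGAA and as the variant CTTGAA, was also present in 24 of 30 (80.0%), against 29.3% of all promoters. Both elements were held by 21 of 30 (70%), against 11.4% of all promoters, and at least 2 CCAAT boxes by 17 of 30 (56.7%), against 11.7%. The 30 were counted per gene, with a match in any promoter of the gene, and the background per promoter. Counted per gene over the 10612 tested genes with a promoter, the shares were 42.8% for CCAAT and 25.9% for the CHR. They were 10.6% for both elements and 16.3% for at least 2 CCAAT boxes. A match is a run of letters and not a measured binding site.

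Shown here are the 180 bases before the start for 5 genes whose promoters hold both elements and, for contrast, for *Birc5*, whose window holds neither although its values separated the groups. Capitals mark CCAAT boxes (ATTGG on the opposite strand) and CHR matches (TTCAAA on the opposite strand of TTTGAA).
Cdk1, chr10:69352913-69353092, minus strand: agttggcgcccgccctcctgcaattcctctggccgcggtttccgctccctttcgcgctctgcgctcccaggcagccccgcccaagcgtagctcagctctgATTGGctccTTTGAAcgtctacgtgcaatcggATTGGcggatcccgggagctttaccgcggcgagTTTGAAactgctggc
Ccnb2, chr9:70421555-70421734, minus strand: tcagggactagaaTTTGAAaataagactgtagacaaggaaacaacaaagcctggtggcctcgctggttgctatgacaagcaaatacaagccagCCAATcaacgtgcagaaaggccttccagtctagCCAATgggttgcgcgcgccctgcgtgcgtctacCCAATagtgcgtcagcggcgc
Cdc20, chr4:118437344-118437523, minus strand: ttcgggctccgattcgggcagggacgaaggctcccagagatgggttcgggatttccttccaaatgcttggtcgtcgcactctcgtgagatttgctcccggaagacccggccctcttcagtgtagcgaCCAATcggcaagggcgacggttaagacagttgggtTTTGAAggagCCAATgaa
Top2a, chr11:99024190-99024369, minus strand: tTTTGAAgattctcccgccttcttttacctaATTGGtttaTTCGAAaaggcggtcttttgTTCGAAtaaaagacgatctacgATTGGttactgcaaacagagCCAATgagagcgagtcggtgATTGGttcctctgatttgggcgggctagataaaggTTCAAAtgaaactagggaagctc
Kif11, chr19:37376202-37376381, plus strand: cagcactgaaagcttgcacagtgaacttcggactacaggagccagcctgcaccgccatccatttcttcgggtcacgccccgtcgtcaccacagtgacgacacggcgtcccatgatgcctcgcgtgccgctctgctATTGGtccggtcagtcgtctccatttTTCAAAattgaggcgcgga
Birc5, chr11:117849057-117849236, plus strand: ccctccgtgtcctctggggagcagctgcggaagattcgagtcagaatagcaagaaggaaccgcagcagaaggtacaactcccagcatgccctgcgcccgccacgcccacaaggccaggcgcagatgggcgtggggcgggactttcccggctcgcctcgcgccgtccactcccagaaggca
The stretch of *Top2a* holds 4 CCAAT boxes and 4 CHR matches. *Ccnb2* has 3 CCAAT boxes and 1 CHR match, *Cdk1* has 2 of each, *Cdc20* has 2 CCAAT boxes and 1 CHR match, and *Kif11* has 1 of each. The absence of a match in *Birc5* says only that these letters were not in this window.

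Library totals lay between 23513665 and 36221514 counts, and levels are given as counts per 1000000 counts (CPM) of each library after TMM scaling. *Cyp2b10*, the classical target of CAR, checked the treatment. It lay between 24.4 and 44.3 CPM in the control livers and between 634 and 1375 CPM in the MI-883-treated livers (log2 fold change 4.80 ± 0.25, adjusted *P* = 3.63e-07, edgeR). All 12 hepatocyte markers examined had at least 10214 counts in every liver. Over all tested genes, the median log2 fold change was 0.0045.

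Every one of the 36 genes had a positive log2 fold change of MI-883 over control, whereas 51.0% of all tested genes did. The median over the 36 was 0.90, and the estimates ran from 0.01 for *Kif20a* to 1.72 for *Cdc20*, with 15 genes beyond 1. No gene passed the adjusted threshold of 0.05 in edgeR's quasi-likelihood test in either direction, against 0.764% of all tested genes that were called higher. The smallest adjusted *P* values were 0.0506 for *Nek2*, 0.0581 for *Birc5* and 0.0775 for *Ect2*. At an unadjusted *P* under 0.05, 27 of the 36 genes were higher, against 8.09% of all tested genes. With DESeq2, 7 genes were higher at an adjusted *P* under 0.05 (*Top2a*, *Ccna2*, *Ccnb1*, *Nek2*, *Cdc20*, *Birc5* and *Ect2*), against 2.2% of all tested genes. In 3 genes (*Nek2*, *Birc5* and *Ect2*) every MI-883-treated liver was above every control liver, against 2.05% of all tested genes. In bulk RNA, fewer cells of a type and less RNA per cell cannot be told apart, so these values do not say whether more cells were in mitosis or each held more of these RNAs.

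**Figure D1:**
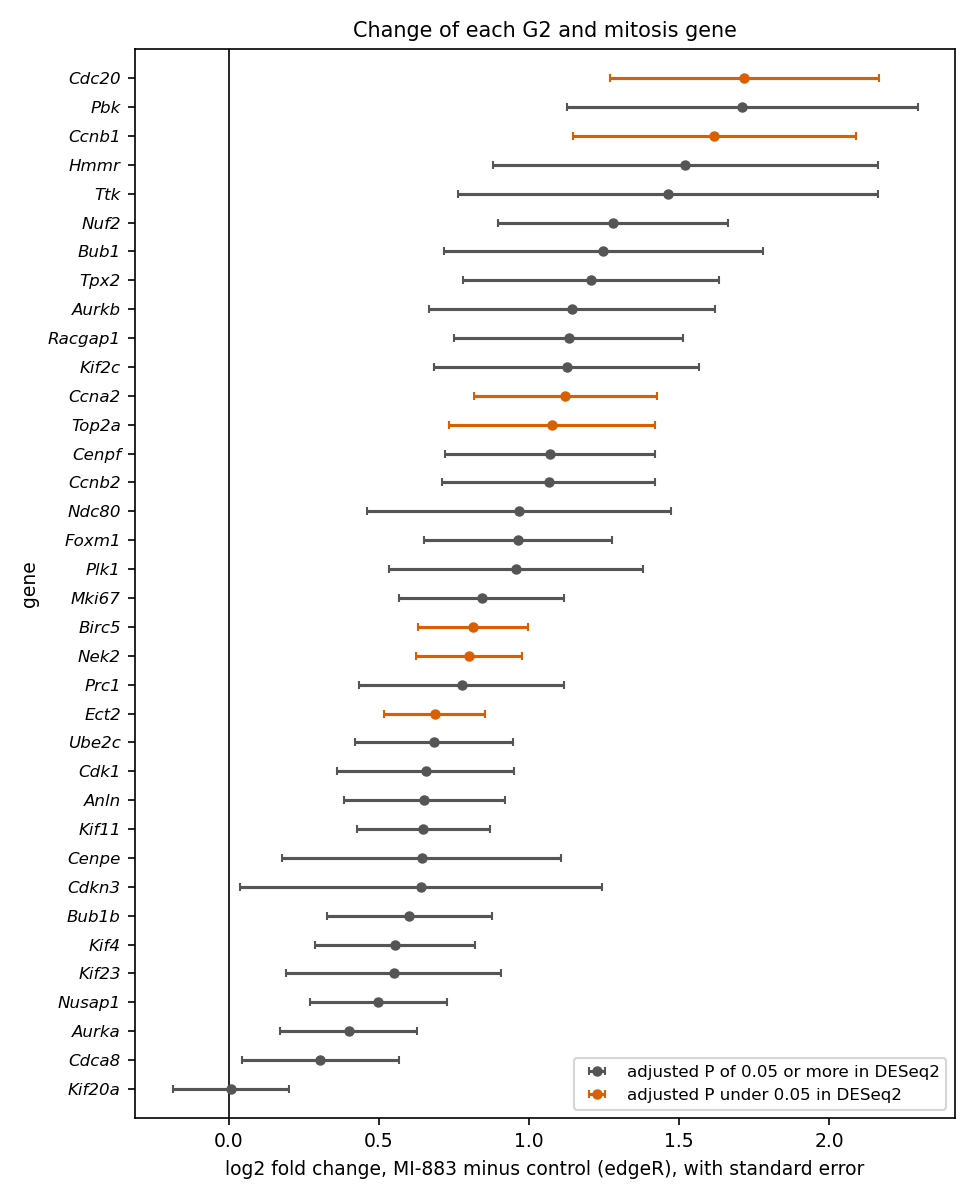
The log2 fold change of MI-883 over control from edgeR is plotted for each of the 36 genes (points) with its standard error (bars), ordered by size. All points lie at or right of 0, from 0.01 for *Kif20a* to 1.72 for *Cdc20*, and the 7 genes with an adjusted *P* under 0.05 in DESeq2 are drawn in orange.

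The spread among livers was wide. The biological coefficient of variation that edgeR estimated had a median of 0.329 over the 36 genes and 0.128 over all tested genes. Between genes it ran from 0.171 for *Ect2* to 0.663 for *Hmmr*. The standard deviation was larger in the MI-883-treated than in the control livers for 32 of the 36 genes. Counts were low as well, at 0 to 245 per gene and liver, with a median control count of at least 10 in 27 genes and under 10 in the other 9. At 3 counts or fewer in at least 1 control liver were 13 genes, and 11 of these were so low in control liver 5. *Cdkn3* had 0 counts in control liver 5, and *Ttk* had 0 counts in control livers 2 and 5, which allows a level of up to 0.0937 CPM in control liver 2 and 0.132 CPM in control liver 5 (3 counts, counting error alone). *Ttk* and *Bub1* would have missed the count minimum had all livers been at their control level. For these 2 genes, being tested was therefore itself linked to the MI-883-treated livers. Both are among the 36 positive estimates given above, and *Bub1* is also among the 27 genes counted there as higher before adjustment. For these genes, both counts thus carry that link.

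Summed over the 36 genes, the level in control livers 1 to 5 was 46.1, 35.7, 31.3, 32.2 and 23.4 CPM, and in MI-883-treated livers 1 to 5 it was 65.1, 41.9, 82.0, 44.5 and 63.1 CPM. The means were 33.7 ± 8.27 and 59.3 ± 16.5 CPM (S.D., *n* = 5 livers each), a ratio of 1.76. MI-883-treated livers 1, 3 and 5 lay above every control liver, whereas MI-883-treated livers 2 and 4 lay above 4 of the control livers and below control liver 1. Poisson 95% intervals for counting error were narrow beside the gap between the lowest and the highest liver. Control liver 5, the lowest, had 21.4 to 25.5 CPM from 533 counts, and MI-883-treated liver 3, the highest, had 78.6 to 85.5 CPM from 2216 counts. The intervals of MI-883-treated livers 2 (39.2 to 44.6 CPM) and 4 (41.8 to 47.3 CPM) overlapped that of control liver 1 (43.9 to 48.4 CPM). Counting error therefore leaves the order of these livers unsettled. The highest liver exceeded the lowest 1.97-fold within the control group and 1.96-fold within the MI-883 group. These ratios of extremes and the ratio between the group means are unlike measures. Without control liver 1, the highest control liver, the ratio of the means was 1.94. Leaving out control liver 5 or MI-883-treated liver 3 would lower that ratio instead.

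**Figure D2:**
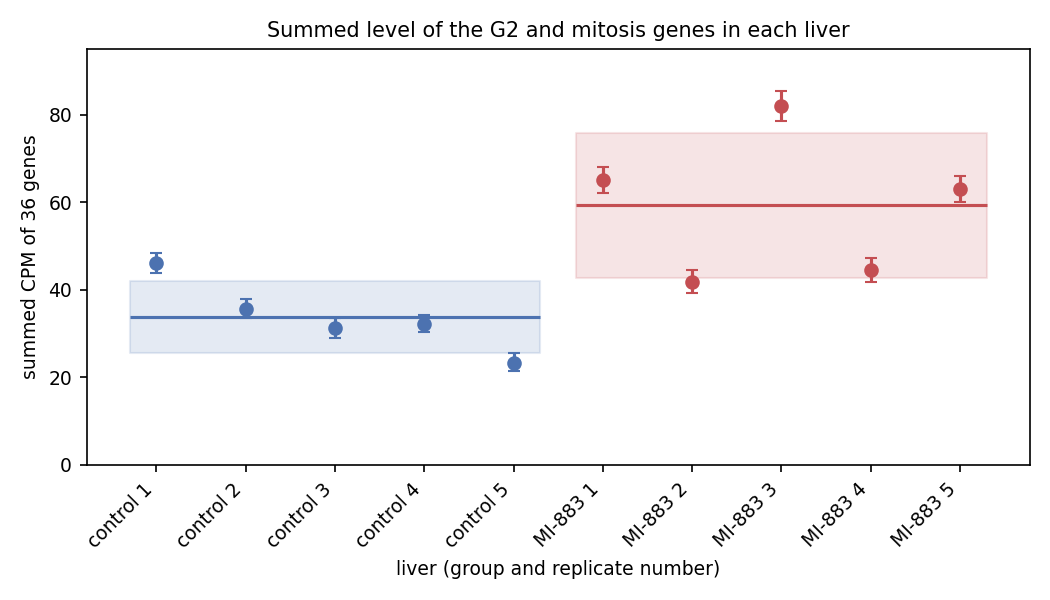
Summed CPM of the 36 genes in each liver (points, blue for control and red for MI-883) is plotted with the Poisson 95% interval of its counts (bars), and lines and bands give the group means ± S.D. Livers 1, 3 and 5 of the MI-883 group sit between 63.1 and 82.0 CPM, above every control liver, and livers 2 and 4 at 41.9 and 44.5 CPM, just below control liver 1 at 46.1 CPM.

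Gene by gene, the same livers stood out. MI-883-treated liver 3 was the highest of all 10 livers for 24 genes, liver 1 for 7, liver 5 for 4 and liver 4 for 1 (*Birc5*), and MI-883-treated liver 2 was the highest for none. Above every control liver were 35 genes in MI-883-treated liver 3, 29 in liver 1 and 27 in liver 5, but 10 each in livers 2 and 4. At the other end, control liver 5 was the lowest of all 10 livers for 22 genes, and control liver 4 for 8. Among the control livers, liver 1 was the highest for 23 genes and liver 2 for 9. Such counts for single livers were not made over all tested genes. Whether they are particular to these 36 genes was therefore not tested. Relative to the mean of the control livers, the median log2 difference over the 36 genes was 0.61, 0.16, -0.0073, -0.024 and -0.58 in control livers 1 to 5. In MI-883-treated livers 1 to 5 it was 1.05, 0.35, 1.60, 0.47 and 1.08. MI-883-treated livers 2 and 4 thus lay between control livers 1 and 2 on this scale. *Cyp2b10* had another order, with 851, 1375, 634, 1249 and 989 CPM in MI-883-treated livers 1 to 5, so that the 2 livers with the lowest mitosis levels had the highest *Cyp2b10* levels.

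**Figure D3:**
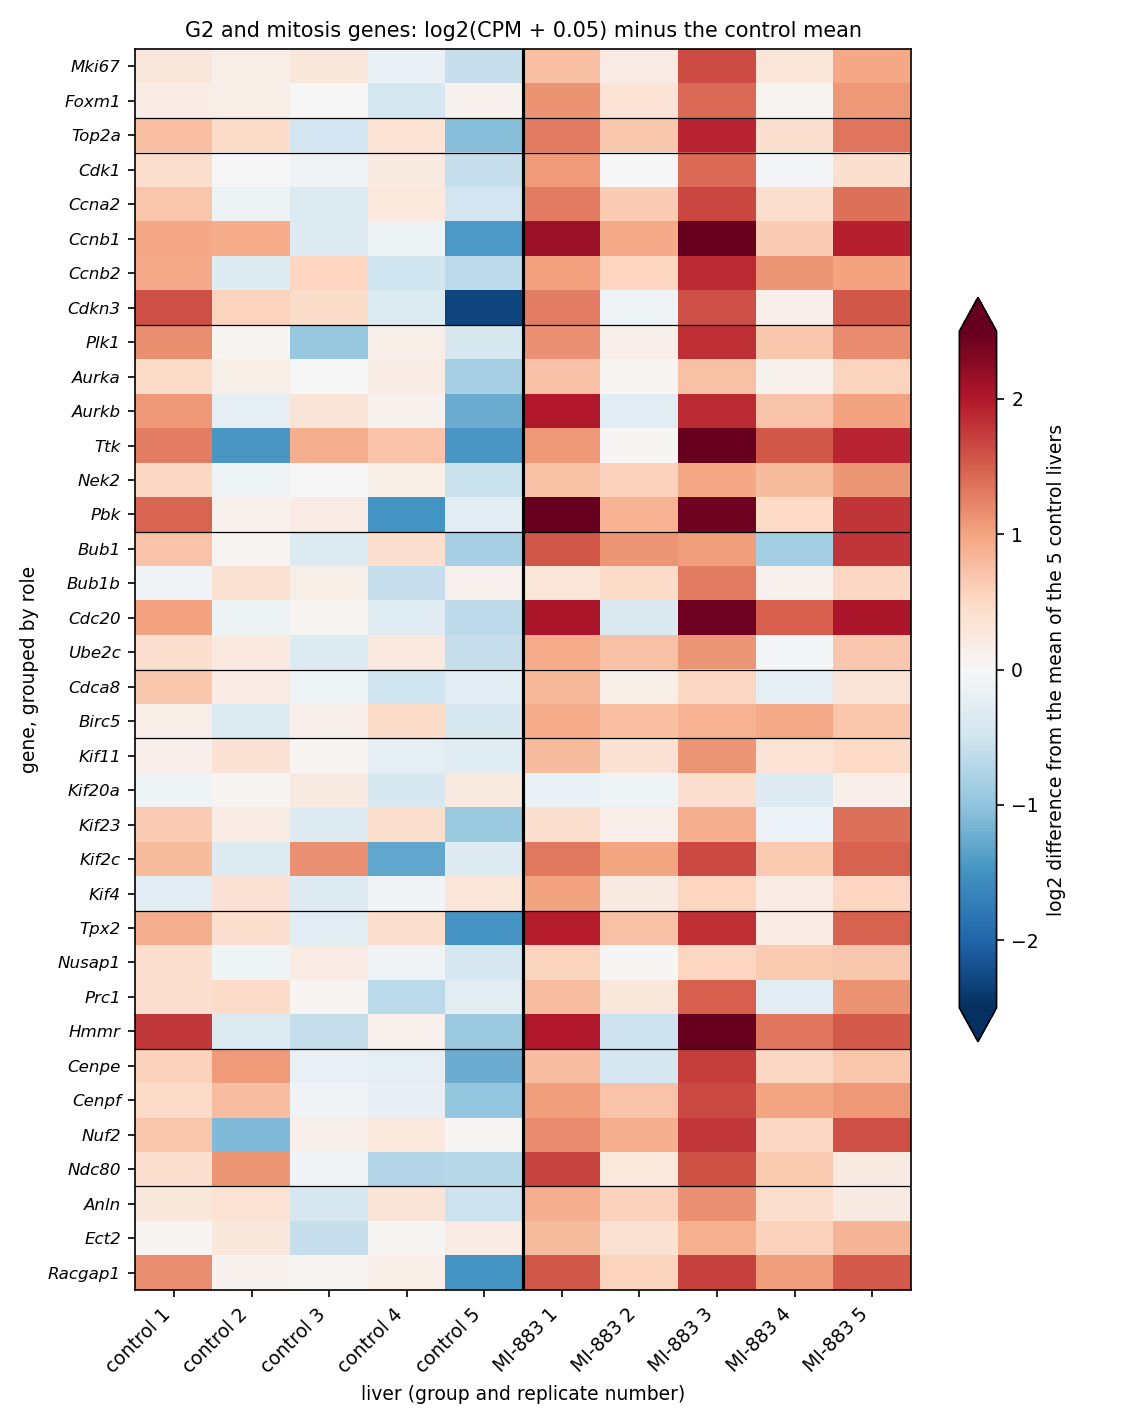
Rows are the 36 genes grouped by role and columns the 10 livers, and colour gives log2(CPM + 0.05) minus the mean of the 5 control livers, with colours saturated beyond 2.5 in either direction. Columns MI-883 1, 3 and 5 are red in nearly all rows, columns MI-883 2 and 4 are paler, control 1 is pale red and control 5 is blue.

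*Cdk1*, the kinase that drives entry into mitosis, was at 2.43, 1.78, 1.68, 2.09 and 1.18 CPM in control livers 1 to 5 and at 3.79, 1.77, 4.81, 1.74 and 2.38 CPM in MI-883-treated livers 1 to 5 (log2 fold change 0.66 ± 0.29, adjusted *P* = 0.306). The groups overlapped widely, with MI-883-treated livers 1 and 3 above the control livers and the other 3 within them, and the exact permutation *P* was 0.151. *Ccnb1*, which encodes the B-type cyclin that activates Cdk1, was at 0.670, 0.656, 0.245, 0.290 and 0.0877 CPM in the control livers and 1.61, 0.664, 2.04, 0.522 and 1.38 CPM in the MI-883-treated livers. Its estimate was larger than that of *Cdk1* (log2 fold change 1.62 ± 0.47, adjusted *P* = 0.139, DESeq2 adjusted *P* = 0.0293), and livers 1, 3 and 5 were again the ones above all controls. *Ccnb1* shares 14.9% of its 100-base stretches with annotated pseudogenes, so some reads may not be its own. *Ccna2*, the cyclin of S phase and G2, had control levels of 1.15, 0.625, 0.531, 0.840 and 0.483 CPM and MI-883 levels of 1.78, 1.11, 2.29, 0.957 and 1.88 CPM (log2 fold change 1.12 ± 0.30, adjusted *P* = 0.110, DESeq2 adjusted *P* = 0.0226). MI-883-treated livers 2 and 4 lay within the control range of *Ccna2* and the other 3 above it, and the exact permutation *P* was 0.0238. *Ccnb2*, the other B-type cyclin, had an estimate of 1.07, with 4 MI-883-treated livers above every control liver. *Cdkn3*, a phosphatase that acts on Cdk1 and Cdk2, had the widest standard error of this group (log2 fold change 0.64 ± 0.60, adjusted *P* = 0.635).

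*Mki67* encodes the proliferation marker Ki-67, which coats mitotic chromosomes. It was at 2.21, 2.03, 2.21, 1.59 and 1.18 CPM in the control livers and at 3.04, 2.08, 5.66, 2.22 and 3.55 CPM in the MI-883-treated livers (means 1.84 ± 0.446 and 3.31 ± 1.45 CPM). Liver 3 was highest by far, while liver 2 lay inside the control range and liver 4 exceeded the highest control liver by a margin smaller than the S.D. (log2 fold change 0.84 ± 0.27, adjusted *P* = 0.171). *Foxm1*, the transcription factor that activates the block, was at 0.475, 0.469, 0.409, 0.290 and 0.439 CPM in the control livers and 0.957, 0.531, 1.18, 0.435 and 0.922 CPM in the MI-883-treated livers. Its 4 highest values were all of MI-883-treated livers, and liver 4 lay among the controls (log2 fold change 0.96 ± 0.31, adjusted *P* = 0.169, exact permutation *P* = 0.0317). *Top2a*, the enzyme that disentangles sister chromatids, was at 2.29, 1.84, 0.940, 1.71 and 0.614 CPM and 3.35, 2.17, 5.15, 1.78 and 3.44 CPM, respectively. The lowest 2 livers were controls 5 and 3, and MI-883-treated liver 4 fell below control livers 1 and 2 (log2 fold change 1.08 ± 0.34, adjusted *P* = 0.166, DESeq2 adjusted *P* = 0.0483).

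Of the 6 mitotic kinases, *Nek2*, which separates the centrosomes, had the highest counts. It was at 5.78, 3.75, 4.01, 4.49 and 2.72 CPM in the control livers and 6.73, 6.06, 7.92, 6.96 and 8.69 CPM in the MI-883-treated livers (means 4.15 ± 1.12 and 7.27 ± 1.03 CPM, 1.74-fold). Here all 5 MI-883-treated livers were above all 5 control livers, although the gap between MI-883-treated liver 2 and control liver 1 was small. The exact permutation *P* was 0.00794, the smallest that 5 against 5 livers can give, and the edgeR and DESeq2 adjusted *P* values were 0.0506 and 0.00118. *Nek2* (chromosome 1, 191821449 to 191833049, GRCm38) is overlapped on the other strand over 6.60% of its exon bases by the gene model Gm38037. *Plk1*, the Polo kinase, was at 0.866, 0.375, 0.163, 0.405 and 0.263 CPM and 0.855, 0.398, 1.41, 0.609 and 0.887 CPM in the control and MI-883-treated livers. Livers 3 and 5 of the MI-883 group exceeded control liver 1, liver 1 was level with it and livers 2 and 4 were below it (log2 fold change 0.96 ± 0.42, adjusted *P* = 0.303). *Aurkb*, the kinase of the chromosomal passenger complex, was at 0.866, 0.312, 0.490, 0.405 and 0.132 CPM and 1.68, 0.310, 1.52, 0.653 and 0.816 CPM. Its groups overlapped across most of their range, with livers 1 and 3 of the MI-883 group apart at the top (log2 fold change 1.14 ± 0.48, adjusted *P* = 0.276). *Aurka*, *Ttk* and *Pbk* had estimates of 0.40, 1.46 and 1.71 (edgeR adjusted *P* = 0.420, 0.337 and 0.185).

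At the spindle checkpoint, *Cdc20*, the APC/C activator that the checkpoint restrains, had the largest estimate of all 36 genes. The gene (chromosome 4, 118432901 to 118437343, GRCm38) was at 1.23, 0.531, 0.613, 0.463 and 0.351 CPM in the control livers and at 2.56, 0.443, 3.37, 1.74 and 2.55 CPM in the MI-883-treated livers. MI-883-treated livers 1, 3, 4 and 5 exceeded every control liver, and MI-883-treated liver 2 was lower than 4 of the control livers. The means were 0.638 ± 0.344 and 2.13 ± 1.11 CPM, a 3.29-fold difference (log2 fold change 1.72 ± 0.45, adjusted *P* = 0.0978, DESeq2 adjusted *P* = 0.00741). *Bub1b*, the checkpoint protein BubR1, was at 0.810, 1.12, 0.940, 0.550 and 0.921 CPM and 1.06, 1.19, 2.15, 0.914 and 1.24 CPM. MI-883-treated livers 2, 3 and 5 exceeded every control liver for *Bub1b*, with liver 3 apart at the top. MI-883-treated livers 1 and 4 lay within the control range (log2 fold change 0.60 ± 0.28, adjusted *P* = 0.318). *Bub1*, a checkpoint kinase, had an estimate of 1.25 on 1 to 15 counts per liver. *Ube2c*, the ubiquitin-conjugating enzyme that works with the APC/C, had an estimate of 0.68 with an adjusted *P* of 0.239, and 22.8% of its exon bases are overlapped by *Tnnc2* on the other strand.

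*Birc5* encodes survivin, a partner of Aurora B in the chromosomal passenger complex. It was at 1.70, 1.19, 1.68, 2.11 and 1.14 CPM in the control livers and at 2.94, 2.61, 2.81, 3.00 and 2.48 CPM in the MI-883-treated livers. The MI-883-treated livers were tightly grouped and all above the highest control liver, which was liver 4 and not liver 1. The means were 1.56 ± 0.405 and 2.77 ± 0.220 CPM (log2 fold change 0.81 ± 0.18, adjusted *P* = 0.0581, DESeq2 adjusted *P* = 0.00448, exact permutation *P* = 0.00794). *Birc5* (chromosome 11, 117849237 to 117855743, GRCm38) was 1 of the 4 genes with a smaller S.D. in the MI-883 group than in the control group. *Cdca8*, which encodes borealin of the same complex, had one of the smallest estimates (log2 fold change 0.30 ± 0.26, adjusted *P* = 0.605), with 1 MI-883-treated liver above every control liver.

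At the kinetochore, *Nuf2*, a subunit of the NDC80 complex that grips microtubules, was at 0.447, 0.0937, 0.286, 0.319 and 0.263 CPM in the control livers and 0.649, 0.531, 0.999, 0.392 and 0.887 CPM in the MI-883-treated livers. The MI-883-treated livers except liver 4 lay above every control liver (log2 fold change 1.28 ± 0.38, adjusted *P* = 0.146, exact permutation *P* = 0.0159). *Ndc80*, of the same complex, was at 0.251, 0.437, 0.163, 0.0869 and 0.0877 CPM and 0.684, 0.221, 0.629, 0.305 and 0.213 CPM. MI-883-treated livers 2, 4 and 5 were below control liver 2 for *Ndc80*, so the groups overlapped (log2 fold change 0.97 ± 0.51, adjusted *P* = 0.378). *Cenpe*, the kinetochore kinesin CENP-E, was at 0.587, 0.844, 0.327, 0.319 and 0.132 CPM and 0.684, 0.266, 1.37, 0.566 and 0.638 CPM. Its spread exceeded the difference between the means, as control liver 2 was above every MI-883-treated liver but the third (log2 fold change 0.64 ± 0.47, adjusted *P* = 0.534). *Cenpf*, a large kinetochore protein, had an estimate of 1.07 with 4 MI-883-treated livers above every control liver.

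Among the motor and spindle genes, *Kif11*, the motor that pushes spindle poles apart, was at 1.09, 1.28, 1.02, 0.840 and 0.790 CPM in the control livers and at 1.74, 1.28, 2.18, 1.26 and 1.42 CPM in the MI-883-treated livers. All MI-883-treated livers were at or above the second highest control liver, with liver 4 below the highest one (log2 fold change 0.65 ± 0.22, adjusted *P* = 0.185, exact permutation *P* = 0.0159). *Tpx2*, which activates Aurora A on the spindle, was at 0.894, 0.625, 0.368, 0.637 and 0.132 CPM and 1.91, 0.797, 1.74, 0.522 and 1.35 CPM. The control values of *Tpx2* were far apart, from control liver 5 to control liver 1, and MI-883-treated livers 2 and 4 lay within their range (log2 fold change 1.21 ± 0.43, adjusted *P* = 0.199). The other motors *Kif2c*, *Kif4* and *Kif23* had estimates of 1.13, 0.55 and 0.55. *Prc1*, which bundles microtubules of the central spindle, *Nusap1*, which stabilizes spindle microtubules, and *Hmmr*, a spindle-associated hyaluronan receptor, had estimates of 0.78, 0.50 and 1.52.

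*Kif20a*, a kinesin of the central spindle, had the estimate nearest to 0 and was singled out after its values were seen. It was at 1.73, 1.94, 2.17, 1.39 and 2.19 CPM in the control livers and at 1.64, 1.73, 2.52, 1.48 and 2.02 CPM in the MI-883-treated livers. Control liver 5, the lowest liver for 22 of the 36 genes, was the highest control liver for *Kif20a*, and the estimate was 0.01 ± 0.19 (adjusted *P* = 0.992). Its sign turned in 5 of the alternative fits, with estimates down to -0.12. *Kif20a* is overlapped over 29.3% of its exon bases by *Cdc23*, a subunit of the APC/C on the other strand, which was at 9.25, 8.59, 8.54, 7.62 and 8.38 CPM in the control livers and 7.62, 8.05, 9.66, 7.96 and 9.96 CPM in the MI-883-treated livers. The strand setting of the counting is not given in the sources used here, and the part of *Cdc23* reads in the values of *Kif20a* was not tested. Overlap on the other strand also exceeded 5% of exon bases for *Ube2c*, *Kif4*, *Ccna2*, *Prc1*, *Plk1* and *Nek2*, and 19 of the 36 genes shared no 100-base stretch with another gene.

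In cytokinesis, *Ect2* (chromosome 3, 27097222 to 27154253, GRCm38), the exchange factor that switches on RhoA at the cleavage furrow, was at 2.96, 3.47, 1.88, 2.90 and 3.29 CPM in the control livers and at 4.92, 3.72, 5.29, 4.26 and 5.14 CPM in the MI-883-treated livers. The groups did not overlap, with MI-883-treated liver 2 closest to the highest control liver, and the means were 2.90 ± 0.616 and 4.67 ± 0.661 CPM. Its difference was 1.61-fold (log2 fold change 0.69 ± 0.17, adjusted *P* = 0.0775, DESeq2 adjusted *P* = 0.00660, exact permutation *P* = 0.00794). *Anln*, the actin-binding protein of the contractile ring, was at 0.894, 0.937, 0.531, 0.927 and 0.483 CPM and 1.40, 1.11, 1.67, 1.001 and 0.851 CPM. MI-883-treated liver 5, high for most genes, was within the control range for *Anln* (log2 fold change 0.65 ± 0.27, adjusted *P* = 0.269). *Racgap1*, a subunit of the centralspindlin complex, had an estimate of 1.13 with 3 MI-883-treated livers above every control liver.

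By role, the median log2 fold change was 1.07 for the cyclins and their kinase, 1.05 for the mitotic kinases, 1.02 for the kinetochore genes, 0.99 for spindle and microtubule binding, 0.97 for spindle checkpoint and anaphase, 0.69 for cytokinesis, and 0.56 and 0.55 for chromosomal passenger partners and kinesins. These differences between roles were not tested. Per kilobase of annotated exon, the highest mean control levels were 0.949 CPM for *Aurka* and 0.919 CPM for *Nek2*, and the lowest was 0.0219 CPM for *Cenpf*. In the MI-883-treated livers the same genes were at 1.26, 1.61 and 0.0473 CPM per kilobase.

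Each liver was left out in turn to see how far single animals carried the difference. The median log2 fold change of the 36 genes stayed between 0.77 and 1.03. It was lowest without MI-883-treated liver 3 (0.77) and without control liver 5 (0.77), and highest without control liver 1 (1.03), MI-883-treated liver 2 (1.02) and MI-883-treated liver 4 (1.001). DESeq2 called 7 genes with all livers, 14 without control liver 1 (against 3.06% of all tested genes called higher in that fit) and 13 without MI-883-treated liver 4 (against 2.54%). It called 3 genes (*Nek2*, *Birc5* and *Ect2*) without MI-883-treated liver 3 (against 1.52%), and 4 genes without each of control livers 3, 4 and 5 and MI-883-treated livers 1 and 5 (against 1.32% to 2.19%). The number of calls over all genes thus moved with the liver left out as well, from 174 to 404 called higher. In edgeR, the number of called genes was 2 without control liver 1 (*Nek2* and *Cdc20*), 1 without control liver 4 (*Birc5*), 1 without MI-883-treated liver 2 (*Cdc20*), and 0 in the other 7 fits, against 1.09%, 0.461%, 0.461% and 0.393% to 0.794% of all tested genes. Genes with an unadjusted *P* under 0.05 in edgeR numbered 17 without MI-883-treated liver 3, against 6.73% of all tested genes that were higher at that threshold. They numbered 28 without control liver 1 (against 9.12%) and 28 without MI-883-treated liver 2 (against 8.15%). *Nek2*, *Birc5* and *Ect2* kept a DESeq2 adjusted *P* under 0.05 in all 10 of these fits.

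**Figure D4:**
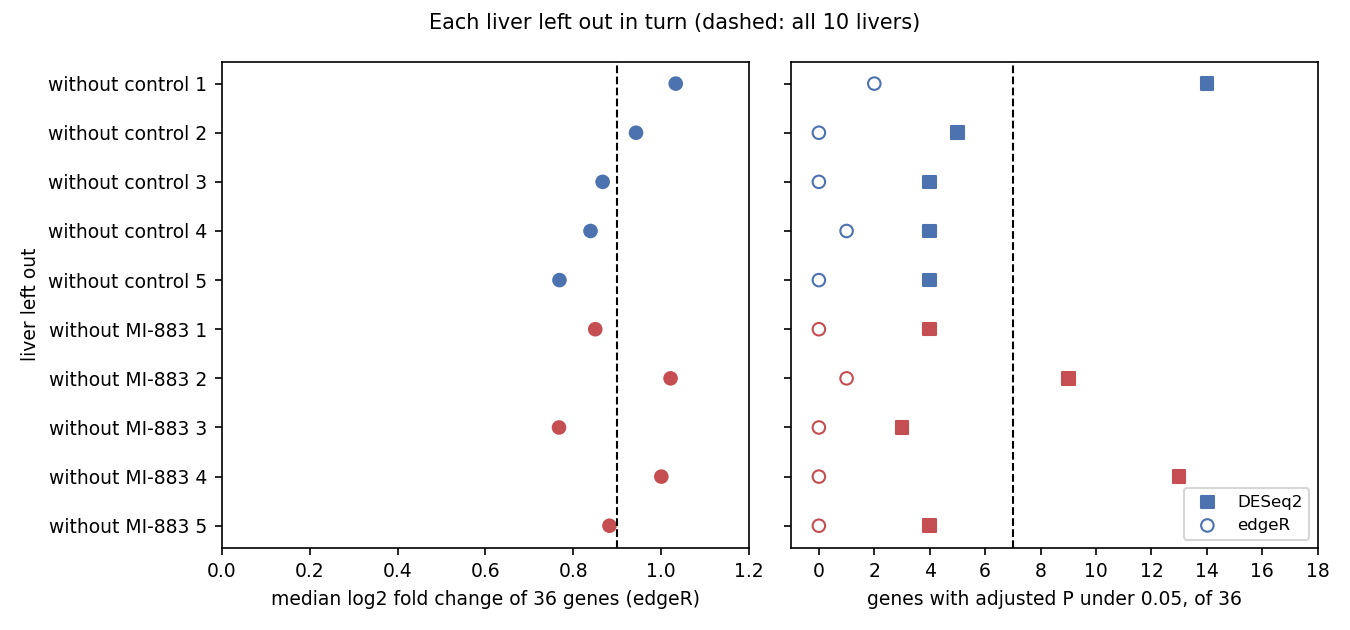
Each row is a fit without the named liver, with the median log2 fold change of the 36 genes on the left and the number of genes with an adjusted *P* under 0.05 on the right (squares DESeq2, open circles edgeR). Dashed lines mark the median with all livers (0.90) and the DESeq2 count with all livers (7), and the count runs from 3 without MI-883 liver 3 to 14 without control liver 1.

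Further genes of the cycle were read from lists made by function. Of 42 tested genes of another 50 mitosis genes, 37 had a positive log2 fold change (median 0.43), against 51.0% of all tested genes. In edgeR 1 gene of this list was called higher, against 0.764% of all tested genes. This was *Gtse1*, a G2 and S phase protein that binds microtubules, at 1.37, 0.781, 1.68, 1.33 and 0.746 CPM in the control livers and 1.95, 2.48, 3.00, 2.48 and 2.94 CPM in the MI-883-treated livers (log2 fold change 1.12 ± 0.23, adjusted *P* = 0.0410). *Gtse1* had no overlap between the groups, but its adjusted *P* rose to between 0.0631 and 0.117 without any one of control livers 2, 4 and 5 or MI-883-treated livers 2, 3, 4 and 5. DESeq2 called *Gtse1*, *Ckap2*, *Ckap2l* and *Dlgap5* higher, against 2.2% of all tested genes. The largest estimate of this list was 2.27 for *Dlgap5*, a spindle protein, and the smallest was -0.32 for *Pttg1*, which encodes securin. *Dlgap5*, *Cenph*, *Kif18b* and *Ska3* would have missed the count minimum had all livers been at their control level. For these genes, being tested was itself linked to the MI-883-treated livers. The count of positive estimates in this list and the DESeq2 call of *Dlgap5* carry that link. For the next list, too, the shares over all tested genes were 51.0% positive and 0.764% called higher in edgeR. Of 45 genes of the G1 to S transition and DNA replication, 36 were positive with a median of 0.26. In edgeR 1 of them passed, *Rrm2*, the regulated subunit of ribonucleotide reductase, at 6.20, 6.31, 5.68, 5.18 and 5.31 CPM and 7.86, 9.29, 8.62, 7.18 and 8.58 CPM in the control and MI-883-treated livers (log2 fold change 0.53 ± 0.10, adjusted *P* = 0.0275). The adjusted *P* of *Rrm2* rose to between 0.0701 and 0.0853 without any one of control livers 3, 4 and 5 or MI-883-treated livers 2, 3 and 5. With the replicate number as a block it was 0.0602, and that of *Gtse1* was 0.0786. DESeq2 called 6 higher (*E2f1*, *Mcm2*, *Mcm6*, *Rrm2*, *Uhrf1* and *Esco2*), against 2.2% of all tested genes. The estimates of this list ran from -0.27 for *Mcm10* to 1.77 for *Uhrf1*, which maintains DNA methylation at replication.

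Cell cycle inhibitors, checkpoint genes and some of their regulators were read as a list of unlike genes, whose median does not describe single members. Over all tested genes, 51.0% were positive, and 0.764% were called higher in edgeR and 2.2% in DESeq2. In edgeR, 35 of the 13219 tested genes were called lower. Among the 24 genes of this list the median was 0.079, with 13 positive (19 when scaled by total counts). In edgeR 1 was called higher, *Gadd45b* (log2 fold change 2.54 ± 0.29, adjusted *P* = 0.000759), and 1 lower, *Gadd45g* (log2 fold change -1.30 ± 0.24, adjusted *P* = 0.0198), both stress-induced genes of the growth arrest family, the latter with an adjusted *P* of 0.0553 without MI-883-treated liver 3 and 0.0626 without MI-883-treated liver 5. In *Gadd45b*, MI-883-treated livers 2 and 4 were the highest, at 30.0 and 25.3 CPM, against 14.4, 11.2 and 16.1 CPM in livers 1, 3 and 5. DESeq2 also called *Pkmyt1*, the kinase that inhibits Cdk1, and *Chek1*, the DNA damage kinase, both higher. Also read were 15 regulators of the block (MuvB subunits, B-Myb and its paralogue, *E2f4*, *E2f5* and their partners, NF-Y and *Myc*), 17 genes of the APC/C and its partners, and 14 tested genes of the YAP pathway (*Yap1*, *Wwtr1*, 3 *Tead* genes and YAP targets). None of these lists held a gene that passed in edgeR or in DESeq2, and 1, 2 and 1 genes had an unadjusted *P* under 0.05, the last being *Wwtr1*, which encodes TAZ, the paralogue of YAP. Their medians were 0.00048, -0.0052 and 0.14 (0.049, 0.041 and 0.18 when scaled by total counts), with estimates from -0.16 (*E2f5*) to 0.26 (*Tfdp1*), from -0.31 (*Anapc11*) to 0.16 (*Ube2s*) and from -0.04 (*Lats2*) to 0.98 (*Ankrd1*).

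Markers of the cell types of the liver were read in the same livers. Over all tested genes, 51.0% had a positive estimate and 8.09% were higher at an unadjusted *P* under 0.05 in edgeR. The 7 tested bile duct markers of 9 all had positive estimates (median 0.53), none passing in edgeR or DESeq2 and 1 with an unadjusted *P* under 0.05. Their summed level was 129.7, 85.2, 40.7, 44.6 and 34.6 CPM in control livers 1 to 5 and 162, 63.9, 204, 46.0 and 65.8 CPM in MI-883-treated livers 1 to 5. Most of that sum was *Spp1*, and the order was in part that of the mitosis genes, with MI-883-treated livers 3 and 1 and control liver 1 at the top and control liver 5 at the bottom, whereas MI-883-treated liver 5 lay below control liver 2. *Cftr* had 0 counts in MI-883-treated livers 4 and 5. Summed over 18 Kupffer cell and myeloid markers, the level lay between 373 and 613 CPM in the control livers and between 351 and 789 CPM in the MI-883-treated livers, highest in MI-883-treated liver 1 and lowest in MI-883-treated liver 5. Of these 18 markers 15 were positive (median 0.12), and none passed in edgeR or DESeq2, with 1 at an unadjusted *P* under 0.05.

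The 12 stellate cell markers summed to 256 to 426 CPM in the control livers and 303 to 507 CPM in the MI-883-treated livers, with 11 positive (median 0.27). None of these passed in edgeR or DESeq2, and 4 had an unadjusted *P* under 0.05. For 10 endothelial markers the sums were 148 to 198 and 169 to 230.2 CPM, with 9 positive (median 0.27). None of these passed in edgeR, 4 had an unadjusted *P* under 0.05, and DESeq2 called *Cdh5*. Lymphocyte markers were at 8.64 to 13.3 CPM in the control livers and 8.33 to 11.6 CPM in the MI-883-treated livers for the sum of 15, of which 14 were tested (median -0.18), and *Ncr1* and *Cd8a* had 0 counts in some livers. The 8 listed erythroid markers summed to 140.3 to 202 and 97.1 to 179.9 CPM, 6 of 7 tested being negative (median -0.37). No lymphocyte or erythroid marker passed in edgeR or DESeq2, and 0 and 2 had an unadjusted *P* under 0.05. All 12 hepatocyte markers had negative estimates (median -0.24; 10 of 12 when libraries were scaled by total counts), from -0.38 for *Fgb* to -0.0030 for *Hnf4a*, and none passed in edgeR or DESeq2, with 5 at an unadjusted *P* under 0.05. Their sums were 92320 to 109617 CPM in the control livers and 78644 to 97170 CPM in the MI-883-treated livers, lowest in MI-883-treated liver 3. The part of these cell types in the levels of the mitosis genes was not tested.

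**Figure D5:**
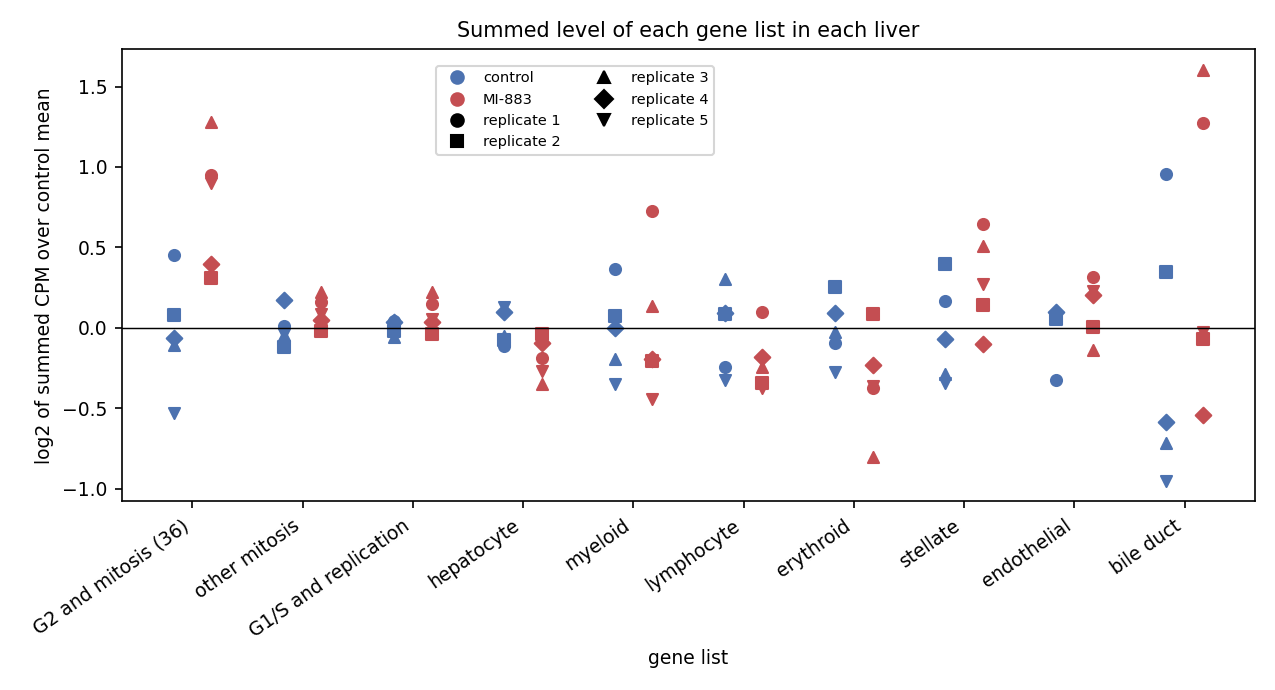
The summed CPM of each gene list in each liver is plotted as the log2 ratio to the mean of the 5 control livers, with colour for the group and marker shape for the replicate number. For the 36 G2 and mitosis genes, MI-883 livers 3, 1 and 5 are on top and control liver 5 is lowest, the bile duct list has MI-883 livers 3 and 1 and control liver 1 on top, and the hepatocyte list lies at or below 0 in all 5 MI-883 livers.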

How the data were processed

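Liver RNA of 10 mice was sequenced with a directional kit on an Illumina instrument. According to the study's methods the authors used STAR for alignment to the mouse genome (mm10) and featureCounts for counting per gene, and the submitters' processing notes also name fastp 0.23.0. The gene annotation and the strand setting are not given in the sources used here. The authors deposited raw counts per gene under Entrez numbers, of which 16644 of 16647 matched a RefSeq symbol. The 36 genes and the other lists were chosen with earlier results of these data known.

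Livers were grouped by treatment label (5 and 5), and each library is from another animal. No batch is given in the labels. Library totals lay between 23513665 and 36221514 counts, and 3 counts correspond to 0.104 CPM on average in the control livers. A gene was tested when its 10 counts added up to 60 or more (13219 genes, with 3428 below). The methods speak of 60 counts in all samples, and the reading as 60 in every sample, which leaves 1 of the 36 genes, was an alternative. The main test was edgeR 4.0.16 in R 4.3.3 (TMM, quasi-likelihood test, a model of treatment alone), and *P* values were adjusted over all tested genes after Benjamini and Hochberg, with a threshold of 0.05. Errors after ± are S.D. for CPM and standard errors for log2 fold changes. The study analysed the data with DESeq2, which was run here (version 1.42.0, Wald test, no independent filtering) as an alternative beside other size factors, filters, a block for the replicate number and each liver left out. Single genes were also compared by a two-sided exact permutation test of mean log2(CPM + 0.05) over 252 ways to part the livers. The edgeR and DESeq2 code was tested on simulated counts. Described in full were the 10 genes with the smallest *P* and 1 or 2 genes of each role, and of other lists the called genes and both extremes.

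Promoters are RefSeq windows of GRCm38.p6. Shared 100-base stretches and exon overlaps were taken from GENCODE M21 (GRCm38), while the annotation that the authors counted on may differ. Sums and medians over lists carry no test, and intervals cover counting error only.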

Additional observations from a re-analysis of the deposited data

Results flagged for a closer look

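In 4 of 102 sets of 5 values examined, 1 liver lay far from the other livers of its group (Dixon's criterion, which chance meets in about 1 in 20 sets, or 5.1 here). For *Bub1b*, MI-883-treated liver 3 was at 2.15 CPM, with the nearest of its group at 1.24 CPM. For *Nusap1*, MI-883-treated liver 2 was at 0.797 CPM, with the nearest at 1.15 CPM. For *Hmmr*, control liver 1 was at 0.838 CPM, with the nearest at 0.232 CPM. The summed endothelial markers were at 148 CPM in control liver 1, with the nearest control liver at 192 CPM.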

How the results depend on the processing

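Counts of called genes depended on the test, the liver left out and, for genes near the threshold, the filter, and the directions of the 36 genes did not, except for *Kif20a*. Low counts and the spread among livers limit the single genes, and 5 against 5 livers cannot give an exact permutation *P* under 0.00794. With DESeq2, 7 of the 36 genes, 4 of the other mitosis genes, 6 of the G1/S genes, 4 of the inhibitors and checkpoint genes, 1 endothelial marker and 463 of all genes were called, against 0, 1, 1, 2, 0 and 136 in edgeR. In edgeR, 1 of the 36 was called (*Nek2*) with the size factors of DESeq2, with filterByExpr, without a filter and with at least 60 counts in every sample. The last filter left *Nek2* as the sole tested gene of the 36, so 1 gene had an unadjusted *P* under 0.05 against 27, with 0 other mitosis genes and 1 inhibitor or checkpoint gene called. Without a filter 2 G1/S genes were called. Scaling by total counts called none of the 36 genes and changed no sign among them.

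Leaving out each liver in turn gave 0 to 2 of the 36 genes in edgeR and 3 to 14 in DESeq2. At an unadjusted *P* under 0.05 in edgeR it gave 17 to 28, against 6.49% to 9.12% of all tested genes that were higher. These DESeq2 fits and the counts at an unadjusted *P* were chosen after seeing the data. Leaving out each liver also gave 62 to 203 of all genes, 0 to 2 other mitosis genes, 0 to 4 G1/S genes and 1 to 4 inhibitors and checkpoint genes. For *Kif20a* the log2 fold change was -0.011 with a replicate block, -0.021 without control liver 1, -0.088 without control liver 4, -0.12 without MI-883-treated liver 3 and -0.021 without MI-883-treated liver 5, and its range over the livers left out was -0.12 to 0.079. That of *Lats2* turned to 0.0011 without control liver 2 and 0.019 without control liver 5 (range -0.13 to 0.019). That of *Hnf4a* turned to 0.034 with total counts, 0.012 with 60 counts in every sample, and lay between -0.076 and 0.062 without single livers (0.038 without control livers 2 and 3, 0.032 without control liver 5, 0.062, 0.034 and 0.013 without MI-883-treated livers 1, 3 and 5).

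Replicate numbers are shared by the groups, but same-numbered livers are different animals, and the correlation of their deviations from the group means was over 0.1 in 3 of 5 pairs (0.55, -0.069, -0.37, 0.18 and 0.15 for replicates 1 to 5, over the 500 genes used). Of the 10 livers, 1 correlated best with its own number, and since not every pair was over 0.1 the numbers were not taken as pairs. With the replicate block 89 genes were called in all, 0 of the other mitosis genes (*Gtse1* at an adjusted *P* of 0.0786), 1 G1/S gene (*Mcm6* at 0.0434, in place of *Rrm2* at 0.0602), 1 erythroid marker, and 0 of the 36 genes. The cause of these differences between settings was not tested.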

Other observations

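*Dlgap5*, a spindle protein and the largest estimate among the other mitosis genes, was at 0.251, 0.156, 0.123, 0.203 and 0 CPM in control livers 1 to 5 and 0.649, 0.266, 1.59, 0.218 and 1.06 CPM in MI-883-treated livers 1 to 5. MI-883-treated livers 3 and 5 were highest, and control liver 5 had 0 counts. *Dlgap5* would have missed the count minimum had all livers been at its control level, so its being tested was linked to the MI-883-treated livers. *Uhrf1*, which maintains DNA methylation at replication and had the largest estimate of the G1/S list, was at 1.34, 0.406, 0.409, 0.434 and 0.439 CPM and 1.78, 0.752, 5.52, 0.522 and 1.99 CPM in the control and MI-883-treated livers, with MI-883-treated liver 3 highest and MI-883-treated livers 2 and 4 and control livers 2 to 5 all under 1 CPM. *Gadd45g*, a growth arrest gene, had another order, at 32.1, 38.2, 21.8, 20.01 and 18.3 CPM in the control livers and 8.44, 15.8, 9.36, 12.4 and 7.52 CPM in the MI-883-treated livers, where livers 2 and 4 were the highest of the MI-883 group and below every control liver.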
